A study of Mus musculus with 141 samples.

Results

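Adipokines are proteins that adipose tissue releases into the circulation or into its surroundings. This account follows 7 adipokine genes, *Lep*, *Adipoq*, *Retn*, *Cfd*, *Rbp4*, *Nampt* and *Apln*, through RNA-seq of inguinal white adipose tissue (iWAT) from inbred mice. The 7 genes were chosen by name, as a list of adipokines, and are 7 of the 36558 genes in the expression tables. The samples were 67 libraries from females and 74 from males of 82 inbred strains of the Hybrid Mouse Diversity Panel (HMDP). The labels give the tissue as subcutaneous adipose, and the study's methods give it as iWAT.

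By strain name the libraries fell into 5 families. BXD recombinant inbred strains gave 32 female and 34 male libraries, classical inbred strains 21 and 23, AXB/BXA recombinant inbred strains 9 and 11, CXB strains 3 and 3, and BXH strains 2 and 3. All mice, in every group, ate chow to 8 weeks of age and then, for 8 weeks, a diet rich in fat and sucrose (HF/HS), and were fasted for 4 hours before tissue collection. There was no chow-fed control group. A strain contributed at most 1 library of each sex, and 59 strains contributed both. For the sex difference, fitted with strain in the model, the spread behind a p-value is therefore that of the female minus male difference over strains. For the families and the correlations it is the spread between strains. In either spread strain, animal and preparation cannot be told apart. In 1 BXD strain, BXD24/TyJ-Cep290<rd16>/J, the name carries the rd16 allele of *Cep290*.

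Leptin, from *Lep*, reports the size of the fat stores to the hypothalamus and restrains feeding, and its mRNA is known to follow adipocyte size and adiposity. Adiponectin (*Adipoq*), resistin (*Retn*) and adipsin or complement factor D (*Cfd*) are made in mice mainly by adipocytes. Adiponectin sensitizes liver and muscle to insulin, resistin opposes insulin action in mice, and adipsin is the serine protease that starts the alternative complement pathway. Retinol binding protein 4 (*Rbp4*) carries retinol in plasma, *Nampt* encodes the rate-limiting enzyme of NAD salvage that is also secreted as visfatin, and apelin (*Apln*) is a vascular and metabolic peptide made by endothelial tip cells and by adipocytes.

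All 7 genes are protein coding. On GRCm38 with the GENCODE M21 annotation, *Lep* lies on chromosome 6 from 29060220 to 29073877, *Adipoq* on chromosome 16 from 23146536 to 23158028, and *Retn* on chromosome 8 from 3655770 to 3660110. *Cfd* lies on chromosome 10 from 79890853 to 79892655, *Rbp4* on chromosome 19 from 38116629 to 38125281, *Nampt* on chromosome 12 from 32819545 to 32853349, and *Apln* on chromosome X from 48025146 to 48034853. The 100 bases before the RefSeq transcription start on GRCm38.p6 are printed here for *Lep*, the member with the largest difference between the sexes, and for *Adipoq*, *Retn* and *Rbp4*, whose levels followed each other most closely across strains. Each is read 5′ to 3′ on the strand of the gene, and *Rbp4* has 2 starts in RefSeq.

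Lep, chr6:29060121-29060220: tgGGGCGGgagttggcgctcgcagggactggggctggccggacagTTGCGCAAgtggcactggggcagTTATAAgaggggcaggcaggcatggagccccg
Adipoq, chr16:23146436-23146535: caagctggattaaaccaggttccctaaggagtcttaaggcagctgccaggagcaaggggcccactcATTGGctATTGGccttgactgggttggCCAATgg
Retn, chr8:3655670-3655769: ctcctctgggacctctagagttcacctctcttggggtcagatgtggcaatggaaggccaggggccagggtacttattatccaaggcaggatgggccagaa
Rbp4, first start, chr19:38125322-38125421: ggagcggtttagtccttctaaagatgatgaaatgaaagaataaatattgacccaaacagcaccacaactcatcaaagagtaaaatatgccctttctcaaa
Rbp4, second start, chr19:38124812-38124911: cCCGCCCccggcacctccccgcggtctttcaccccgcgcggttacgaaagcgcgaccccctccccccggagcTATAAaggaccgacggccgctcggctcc

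Capitals mark matches on either strand to TATAA, which is the core of a TATA box, to GGGCGG, a GC box, to CCAAT, the box of that name, and to TTGCGCAA, the palindrome that C/EBP proteins bind, while the E-box CACGTG was searched as well. The *Lep* window held the C/EBP palindrome from 55 to 48 bases before the start, a motif present in 22 of the 32851 windows of the same length, or 0.067% of them. It also held TATAA on both strands, which overlap each other and lie within 32 bases of the start, and 1 GC box. The *Adipoq* window held CCAAT 3 times, where 18.9% of all windows held it at least once. The second *Rbp4* window held TATAA and a GC box, which 10.2% and 24.7% of all windows held, and the *Nampt* window held 3 GC boxes. None of these letters occurred in the windows of *Retn*, *Cfd* and *Apln* or in the first *Rbp4* window. No binding was measured, and a match is a description of the letters.

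The libraries held a median of 30233245 estimated counts, the shallowest 6269154 and the deepest, the male of CXB11/HiAJ, 78562648. The adipocyte identity of the tissue was checked on 8 markers, all of which were detected in every library. In 3 libraries the summed level of *Kdm5d*, *Uty*, *Ddx3y* and *Eif2s3y*, all Y-linked, went against the label: the libraries labelled BXD34/TyJ female and BXD69/RwwJ female carried their reads, and the library labelled NZW/LacJ male was at the female level. The first of these was also the shallowest library, and its level depended on the scale. It was the lowest female in TPM for every member but *Lep*, whereas in CPM it was the lowest for *Nampt* alone (50.1), at 1075 for *Adipoq*, 311 for *Retn*, 490 for *Cfd*, 117.4 for *Rbp4* and 4.58 for *Apln*, where the lowest females had 296, 91.97, 137.7, 34.6 and 2.39 CPM. The library labelled AXB12/PgnJ female had the lowest adipocyte score and the highest macrophage score of its sex. Lymph node and lymphocyte markers split the libraries into 76 low and 65 high, with no library between 2.56 and 3.60 on the log2 scale of their mean, and 33 of the 65 were female. The sex differences are given with and without these strains where a value moved. Extremes held by the AXB12/PgnJ female or by a library against the Y-linked check are named with the next value.

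*Adipoq* and *Cfd* were the most abundant adipokine transcripts and *Apln* the least. In TPM, a unit scaled for transcript length and library size so that genes can be compared, *Adipoq* had a median of 1870 in females and 2235 in males, and *Cfd* 1871 and 1628. Next came *Retn* with 633 and 674 and *Lep* with 470 and 865, *Retn* ahead in females and *Lep* in males, then *Rbp4* with 242 and 240, *Nampt* with 39.4 and 50.7, and *Apln* with 3.83 and 7.39. The upper neighbours in this order overlapped: *Adipoq* exceeded *Cfd* in 32 of 67 female and 49 of 74 male libraries, and *Lep* exceeded *Retn* in 27 of 67 and 45 of 74. The lower part of the order was nearly fixed. *Retn* exceeded *Rbp4* and *Nampt* exceeded *Apln* in every library, and *Rbp4* exceeded *Nampt* in all but 1, a female library. The member with the highest TPM was *Cfd* in 35 and *Adipoq* in 30 of the 67 female libraries, but *Adipoq* in 48 and *Cfd* in 25 of the 74 male libraries. *Lep* was the highest in the remaining 2 female libraries and 1 male library.

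The members differed in how far they varied between strains. The SD of log2 CPM (TMM-scaled counts relative to the library size) was 1.96 in females and 1.31 in males for *Lep*, against a median of 0.50 and 0.42 over the 16862 genes that were measured well enough, and only 3.06% and 8.08% of those genes varied more. *Apln* (1.11 and 1.02) and *Cfd* (1.03 and 1.10) came next. *Rbp4* (0.78 and 0.84), *Retn* (0.76 and 0.65) and *Adipoq* (0.66 and 0.49) were intermediate. *Nampt* had an SD of 0.35 in females and 0.26 in males, and 67.1% and 73.3% of genes varied more.

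Whether adipokine expression differs between the sexes was asked in the 59 strains with both libraries, with strain in the model so that each female library is set against the male library of its own strain. Of the 7 adipokine genes, 4 were lower in females at an adjusted p under 0.05 and none was higher (edgeR's quasi-likelihood test, Benjamini-Hochberg over 16765 genes). They were *Lep*, *Apln*, *Adipoq* and *Nampt*. *Retn*, *Cfd* and *Rbp4* did not pass. The test called 58.1% of all genes, and 29.8% of all genes were called lower in females, so a call by itself was common in this comparison. Under scaling by library totals, which raised the median log2 fold change of all genes to 0.12, the calls split into 7410 higher and 2774 lower in females, and on log2(TPM + 1) into 5325 and 2868, where TMM scaling gave 4759 and 4988, and the 4 members were called lower under each. Because whole tissue was sequenced, fewer cells of a type and less RNA per cell cannot be told apart in any of these values.

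*Lep* showed the largest difference of the 7. In females it ranged from 8.01 TPM in BXD38/TyJ through a median of 470 to 2571 in BXD24/TyJ-Cep290<rd16>/J. In males it ranged from 12.4 TPM in SJL/J through 865 to 2696 in BXA11/PgnJ. The ranges overlapped almost entirely, with the males higher at the median, and SJL/J was also the next to lowest female at 13.3 TPM. Within strains, *Lep* was lower in the female library in 51 of 59. The log2 fold change (female over male) was -1.32 ± 0.24 (SE, n = 59 strains), a level 2.50-fold lower in females, with an adjusted p of 4.28e-06 (edgeR's quasi-likelihood test). Only 4.44% of the genes tested differed by more. The single strains ran from -6.25 in BXD38/TyJ to 4.28 in NZW/LacJ, the strain whose library labelled male was at the female Y-linked level. In both pairs the library with the lower *Lep* was high in lymph node markers and the other was low. Their mean log2 CPM was 7.63 in the female and 0.54 in the male of BXD38/TyJ, and -0.11 and 7.055 in NZW/LacJ. Without strains against the Y-linked check the log2 fold change was -1.38, without AXB12/PgnJ it was -1.29, and without the strain term it was -0.77 (adjusted p = 0.0107).

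*Apln* was lower in females in 46 of 59 strains. Its TPM ran from 0.404 in BXD34/TyJ, the shallow library, and otherwise from 0.845 in BXD14/TyJ, through a median of 3.83 to 28.2 in BXD69/RwwJ among females, and from 0.682 in NZB/BlNJ through 7.39 to 41.4 in BXD71/RwwJ among males. The highest female was a library that carried Y-linked reads, and the next was BXD84/RwwJ at 19.5 TPM. The ranges overlapped, with males higher at the median. The log2 fold change was -0.79 ± 0.17 (SE, n = 59 strains), 1.74-fold lower in females, at an adjusted p of 4.28e-05 by edgeR's quasi-likelihood test.

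*Nampt* was lower in the female library in 53 of 59 strains. Its TPM ran from 3.58 in BXD34/TyJ, and otherwise from 23 in CXB11/HiAJ, through 39.4 to 122.4 in AXB12/PgnJ among females, and from 23.8 in CXB11/HiAJ through 50.7 to 76.2 in 129X1/SvJ among males. The log2 fold change was -0.31 ± 0.05 (SE, n = 59 strains), or 1.24-fold, at an adjusted p of 9.51e-08 by edgeR's quasi-likelihood test. The female of AXB12/PgnJ was the exception in size, at 1.05 log2 units above its male.

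*Adipoq* was lower in the female library in 37 of 59 strains. It ranged from 302 TPM in BXD34/TyJ and 419 in AXB12/PgnJ through 1870 to 3454 in 129X1/SvJ among females, and from 680 in NZW/LacJ, the library at the female Y-linked level, and 796 in SJL/J through 2235 to 3503 in BXA7/PgnJ among males. The upper ends were nearly equal, and the females reached lower. The log2 fold change was -0.33 ± 0.11 (SE, n = 59 strains), 1.25-fold lower in females, at an adjusted p of 0.00851 by edgeR's quasi-likelihood test.

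The remaining members gave log2 fold changes of -0.12 ± 0.11 for *Retn*, 0.16 ± 0.15 for *Cfd* and 0.10 ± 0.12 for *Rbp4* (SE, n = 59 strains), with adjusted p-values of 0.386, 0.358 and 0.493 from the same test. *Retn* ranged from 112.3 TPM in BXD34/TyJ and 180 in AXB12/PgnJ to 1518 in BXA2/PgnJ among females and from 267 in BXD66/RwwJ to 1570 in CXB13/HiAJ among males. *Cfd* ranged from 172 TPM in BXD34/TyJ and 283 in BXD69/RwwJ, which both carried Y-linked reads, and otherwise from 308 in BXD62/RwwJ, to 7626 in C57BLKS/J among females and from 345 in CE/J to 6813 in BXD15/TyJ among males. *Rbp4* ranged from 42 TPM in BXD34/TyJ and 65.1 in MA/MyJ to 687 in CXB11/HiAJ among females and from 55.6 in SJL/J to 750 in AXB12/PgnJ among males. The sexes overlapped over nearly the whole range of each gene. The female library was the higher of the pair in 26, 35 and 38 of 59 strains. *Retn* counts were more than 1e-06 from a whole number in 97.9% of libraries, as happens where reads are split between transcripts that share sequence, so its level is less certain than that of the other 6.

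**Figure D1:**
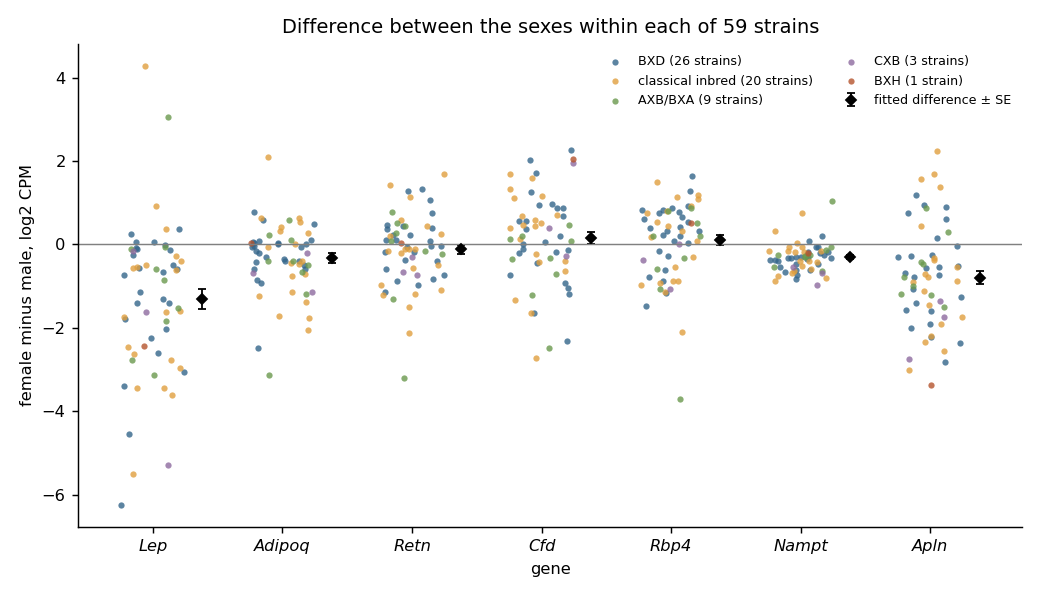
Female minus male log2 CPM of each adipokine gene, 1 point per strain for the 59 strains with both libraries, coloured by strain family, with a black diamond for the fitted log2 fold change and its SE. Most strains lie below 0 for *Lep* (51 of 59), *Nampt* (53) and *Apln* (46), whereas the points of *Retn*, *Cfd* and *Rbp4* lie on both sides of 0.

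Markers of the cells in the tissue moved between the sexes as well. The adipocyte markers (*Plin1*, *Plin4*, *Cidec*, *Fabp4*, *Lipe*, *Pnpla2*, *Gpd1* and *Trarg1*) were all 8 called lower in females, their mean log2 CPM was lower in the female library in 53 of 59 strains, by 0.68 ± 0.74 (SD) on average, and their summed level was 3630 to 38120 CPM in females and 9114 to 46540 in males. With this adipocyte score as a further covariate, the log2 fold change of *Adipoq* became 0.39 and that of *Retn* 0.55, with *Rbp4* at 0.79 and *Cfd* at 0.61, all higher in females (adjusted p from 8.20e-10 to 0.00322, edgeR's quasi-likelihood test). Under the same covariate *Lep* was at -0.35 (adjusted p = 0.288), *Apln* at -0.63 (adjusted p = 0.0154) and *Nampt* at -0.25 (adjusted p = 0.000714). The score includes *Lipe* and *Pnpla2*, which the paper found higher in male iWAT and for which it proposes more lipid cycling in males. Since the score genes themselves differed between the sexes, the covariate cannot separate adipocyte content from regulation of these genes. The 8 endothelial markers were also all called lower in females (lower in 49 of 59 strains), 7 of the 8 macrophage markers were called lower and the eighth, *Cd14*, higher (1.23), and all 9 mammary epithelial markers were called higher, with their score higher in the female library in 58 of 59 strains. *Krt5* and *Krt14*, which mark basal epithelium, had a median of 0 TPM in males. The part of these cell types in the sex differences was not tested beyond the covariate.

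The split by lymph node markers went together with the members. Median *Lep* was 736 TPM in the 34 female libraries low in these markers and 179 TPM in the 33 high ones, and 1268 and 616 TPM in the 42 and 32 male libraries. *Adipoq* had medians of 2115 and 1469 TPM in females and 2526 and 1716 in males, *Retn* 708 and 550, then 755 and 611, *Rbp4* 303 and 216, then 311 and 198, and *Apln* 6.01 and 2.98, then 8.19 and 5.70. These 5 genes were lower at the median in the libraries high in lymph node markers in both sexes. *Cfd* was nearly level in females, at 1853 and 1871 TPM, and higher at the median in the high libraries in males, at 1375 and 1836. *Nampt* was nearly level at 38.5 and 39.8, then 50.7 and 50.3. The ranges overlapped for every member. In the 59 matched strains the summed level of the lymph node markers had a median of 240.8 CPM in females and 16.5 CPM in males. Their mean log2 CPM was higher in the female library in 29 strains and lower in 30. Female minus male it was 0.69 ± 3.62 (SD) on average, and none of the 7 markers tested was called. In the 19 strains with both libraries low in these markers, *Lep* was still lower in females (log2 fold change -0.73, adjusted p = 0.00987), as were *Apln* (-0.62, adjusted p = 0.0405) and *Nampt* (-0.35), whereas *Adipoq* was at -0.06 (adjusted p = 0.509) and *Rbp4* was higher in females at 0.46 (adjusted p = 0.000520, edgeR's quasi-likelihood test). Why a library holds lymph node transcripts, and their part in the members' levels, was not tested.

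**Figure D2:**
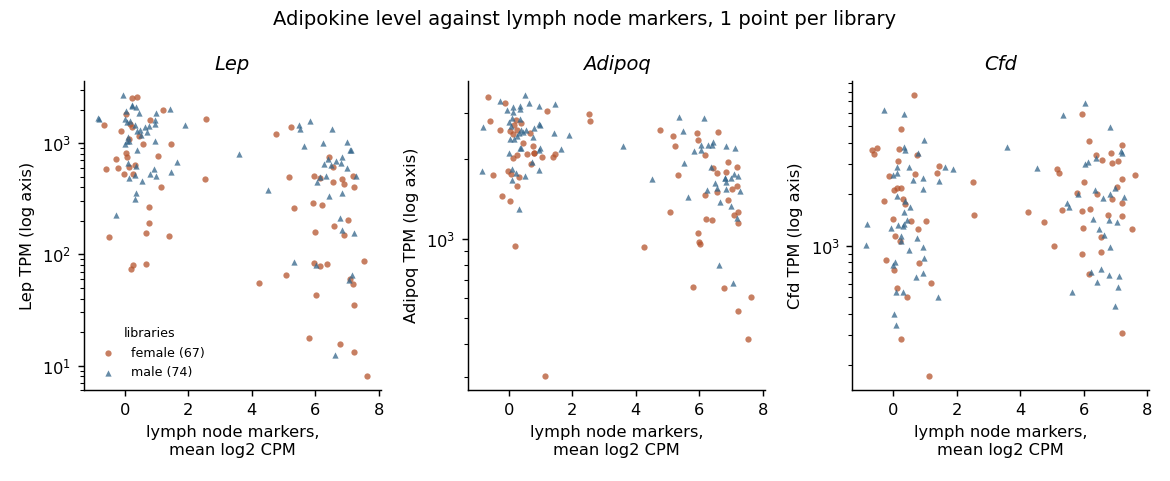
TPM of *Lep*, *Adipoq* and *Cfd* on a log10 axis against the mean log2 CPM of the lymph node markers, 1 point per library, circles for 67 females and triangles for 74 males. The libraries form a low and a high cluster with none between 2.56 and 3.60, *Lep* reaches lower in the high cluster, and the levels of both clusters overlap for all 3 genes.

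Whether the sex difference itself depended on the strain family was tested in the 3 families with enough matched strains. By the interaction of sex and family in edgeR's quasi-likelihood test, 0 of 16778 genes were called (0.0%), with 678 at an unadjusted p under 0.05, and limma-voom also called 0, with 922. The adjusted p was 1.0 for all 7 members. Within the 26 BXD strains *Lep* (-1.17 ± 0.35), *Apln* (-0.69 ± 0.24) and *Nampt* (-0.33 ± 0.07) were called lower in females, where the test called 33.8% of all genes. Within the 20 classical inbred strains the same 3 members were called, at -1.53 ± 0.42, -0.73 ± 0.29 and -0.30 ± 0.08 (log2 fold change ± SE), against 37.4% of all genes. These calls were not all stable: *Apln* missed under library totals (adjusted p = 0.0921) and with no filter (0.0713), *Nampt* missed under library totals (0.0517), and without NZW/LacJ *Adipoq* was also called, at -0.48 (0.0337, edgeR's quasi-likelihood test). Within the 9 AXB/BXA strains no member was called, against 7.98% of all genes, and *Lep* was at -0.96 ± 0.61, *Apln* at -0.59 ± 0.40 and *Nampt* at -0.14 ± 0.12.

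Families were compared within each sex, since within a sex every library has another strain name. AXB19/PgnJ, AXB19a/PgnJ and AXB19b/PgnJ share a line number and may not be independent. They were counted as separate strains here and in the other tests. In females no member differed over the 5 families, where the test called 8.73% of 20270 genes, and the lowest adjusted p was that of *Apln* at 0.0941 (edgeR's quasi-likelihood test). In males *Retn* (adjusted p = 0.00445) and *Rbp4* (adjusted p = 0.0340) differed over the families, where the same test called 13.1% of 19283 genes. Male *Retn* ran from 296 through a median of 626 to 1194 TPM in classical inbred strains, from 267 through 653 to 1114 in BXD, from 642 through 776 to 1440 in AXB/BXA, from 584 through 753 to 1120 in BXH and from 928 through 968 to 1570 in CXB. Male *Rbp4* had medians of 223, 197, 303, 198 and 425 TPM in the same order, and its 3 CXB libraries lay between 298 and 432. CXB was the highest family at the median for both genes. In TPM its values lay within the range of the larger families except for the highest *Retn* library, but in TMM-scaled CPM, the scale of the test, the males of CXB11/HiAJ and CXB13/HiAJ reached 1348 and 1103 for *Retn*, above the 898 of the larger families, and CXB11/HiAJ reached 595 for *Rbp4*, above their 456. Both calls rested on few libraries. Without the male of CXB11/HiAJ, the deepest library, the adjusted p was 0.0704 for *Retn* and 0.250 for *Rbp4*, without the male of CXB13/HiAJ it was 0.0289 and 0.0576, and without CXB and BXH it was 0.182 and 0.242 (edgeR's quasi-likelihood test). By the same leave-out, *Apln* in females reached an adjusted p of 0.0440 without BXH22/KccJ, and *Nampt* in males 0.0471 without BXH6/TyJ. Without AXB19a/PgnJ and AXB19b/PgnJ the adjusted p in males was 0.00379 for *Retn* and 0.0165 for *Rbp4*, and no member was called in females (edgeR's quasi-likelihood test). No contrast among BXD, AXB/BXA and classical inbred strains called any member in either sex. The *Retn* contrast of BXD minus AXB/BXA in males was -0.50 ± 0.19 (adjusted p = 0.188), and that of *Rbp4* was -0.62 ± 0.25 (adjusted p = 0.230).

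**Figure D3:**
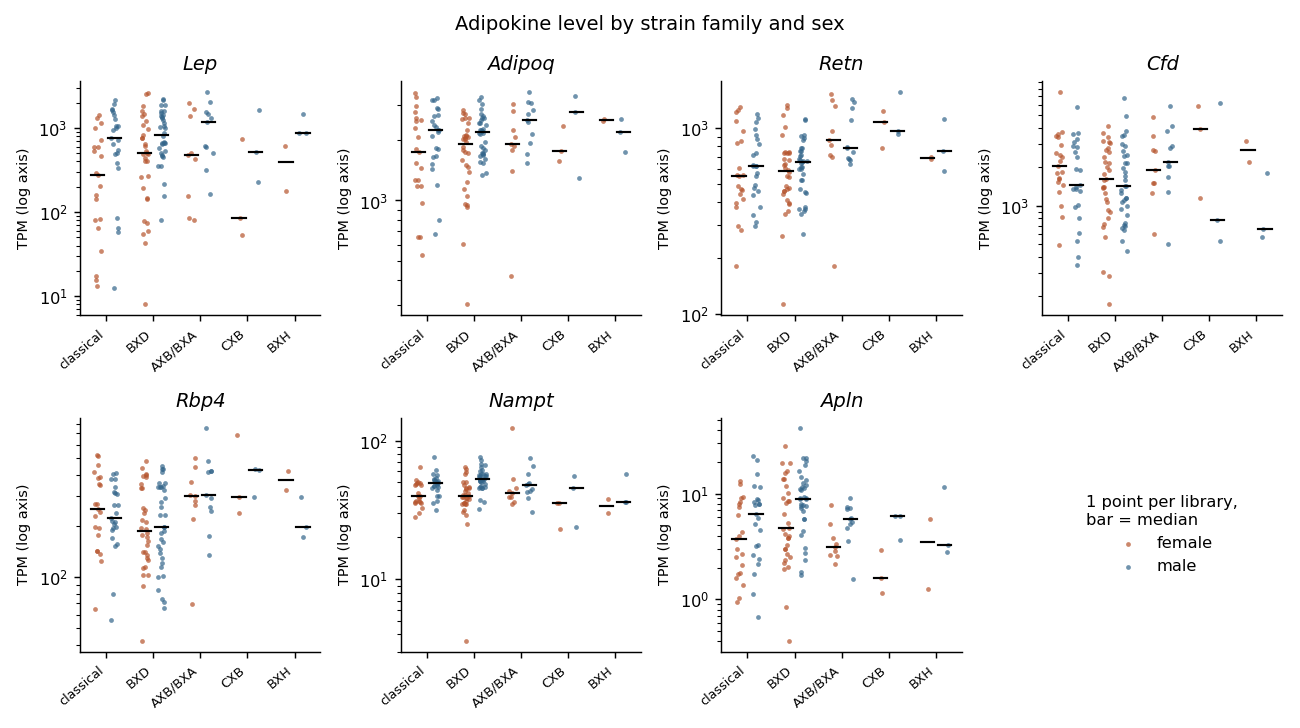
TPM of the 7 adipokine genes on log10 axes by strain family, females and males side by side, 1 point per library and a bar at the median. In males the 3 CXB libraries have the highest medians of *Retn* and *Rbp4* (968 and 425 TPM), while the 3 larger families overlap for every gene.

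Because the female and the male of a strain share their genotype, the 59 pairs show how far a member's level follows the strain. The correlation of log2 CPM was highest for *Cfd* (Pearson's r = 0.44, Spearman's rho = 0.40) and *Lep* (0.43 and 0.44), each with an adjusted p of 0.00185 for r and 0.00385 and 0.00329 for rho (permutation test with 100000 resamples, two-sided, Benjamini-Hochberg over 7 members). *Rbp4* (r = 0.36, rho = 0.35), *Retn* (0.33 and 0.41), *Nampt* (0.33 and 0.35) and *Apln* (0.31 and 0.38) had adjusted p-values from 0.0117 to 0.0183 for r and from 0.00385 to 0.00766 for rho. For *Adipoq* r was 0.06 and rho 0.16 (adjusted p = 0.677 and 0.237, permutation test). Over all genes the median r was 0.30, and 23.4% of genes had a larger r than *Lep* and 94% a larger r than *Adipoq*. For *Cfd* that share was 22.4%, for *Rbp4* 37.1%, for *Retn* 43.7%, for *Nampt* 43.8% and for *Apln* 47.1%. The r of the last 4 lay between the median and the upper quartile of all genes (0.42). The share of all genes that would pass this test was not computed. Without NZW/LacJ, whose library labelled male went against the Y-linked check, r was 0.52 for *Lep* and 0.14 for *Adipoq*. Without the 2 strains whose female level lay farthest from the median, r was 0.35 for *Lep*, 0.40 for *Cfd*, 0.42 for *Rbp4*, 0.46 for *Retn*, 0.39 for *Nampt*, 0.28 for *Apln* and 0.04 for *Adipoq*. Within the 26 BXD strains r lay between 0.24 for *Adipoq* and 0.56 for *Rbp4*, and in the 33 strains outside BXD between -0.01 for *Adipoq* and 0.44 for *Cfd*. For r the adjusted p passed 0.05 in BXD for 5 members, *Lep*, *Retn*, *Cfd*, *Rbp4* and *Nampt*, and outside BXD for none. For rho *Adipoq* also passed in BXD (rho = 0.44, adjusted permutation p = 0.0349), *Cfd* did not (adjusted permutation p = 0.0561), and none passed outside BXD. Without the 2 farthest BXD strains r was 0.59 for *Adipoq*. The difference between these strains was not tested, and the share of all genes that passed within BXD or outside it was not computed.

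The members formed a group of 3 that rose and fell together across strains. *Adipoq*, *Retn* and *Rbp4* correlated pairwise in log2 CPM with r from 0.70 to 0.77 in the 67 female libraries and from 0.68 to 0.76 in the 74 male libraries (rho from 0.68 to 0.75 and from 0.72 to 0.76), each with a permutation p of 1e-05, the smallest that 100000 resamples can give. The adjusted p was 4.67e-05 for r and 4.20e-05 for rho, over 42 correlations of 21 pairs in both sexes. Without the 2 libraries farthest from the median r stayed between 0.66 and 0.77 for these pairs. In the libraries low in lymph node markers r was 0.45 for *Adipoq* and *Retn*, 0.61 for *Adipoq* and *Rbp4* and 0.71 for *Retn* and *Rbp4* in females, and 0.75, 0.67 and 0.71 in males. *Cfd* correlated with the 3 genes at r from 0.25 to 0.46 in females, where its pair with *Adipoq* did not pass (adjusted permutation p = 0.0743), and from 0.43 to 0.52 in males.

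*Lep* and *Apln* rose together, with r = 0.51 in females and 0.60 in males (rho = 0.51 and 0.52, adjusted permutation p at most 7.64e-05). Both ran against *Cfd*. *Lep* and *Cfd* had r = -0.42 in females and -0.45 in males (rho = -0.43 and -0.48, adjusted permutation p at most 0.00105), and *Cfd* and *Apln* had r = -0.51 and -0.32 (rho = -0.50 and -0.32, adjusted permutation p at most 0.0123). Without the 2 libraries farthest from the median these were 0.49 and 0.59 for *Lep* and *Apln*, -0.43 and -0.52 for *Lep* and *Cfd*, and -0.45 and -0.31 for *Cfd* and *Apln*. In BXD and outside BXD *Lep* and *Apln* had r = 0.64 and 0.32 in females and 0.75 and 0.54 in males, and *Lep* and *Cfd* -0.55 and -0.24, then -0.52 and -0.42. In the libraries low in lymph node markers *Lep* and *Cfd* had r = -0.70 in females and -0.66 in males, a closer opposite relation than in all libraries.

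The relation of *Lep* to *Adipoq* depended on the libraries. Over all libraries r was 0.61 in females (rho = 0.50, adjusted permutation p = 4.67e-05) and 0.28 in males (rho = 0.14, adjusted permutation p = 0.0351 for r and 0.325 for rho), and without the 2 male libraries farthest from the median it was 0.04. In the libraries low in lymph node markers r was -0.03 in females (adjusted permutation p = 0.925) and -0.45 in males (rho = -0.41, adjusted permutation p = 0.00831). In those high in these markers it was 0.59 in females and 0.17 in males. The positive correlation in males thus rested on a few libraries, and its sign turned within the low group. Over all libraries in log2 CPM *Nampt* correlated with no other member beyond r = 0.28 in females or 0.26 in males. In BXD females it had r = 0.43 with *Retn* (adjusted permutation p = 0.0332), and on log2(TPM + 1) r = 0.34 with *Apln* in females (adjusted permutation p = 0.00823).

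**Figure D4:**
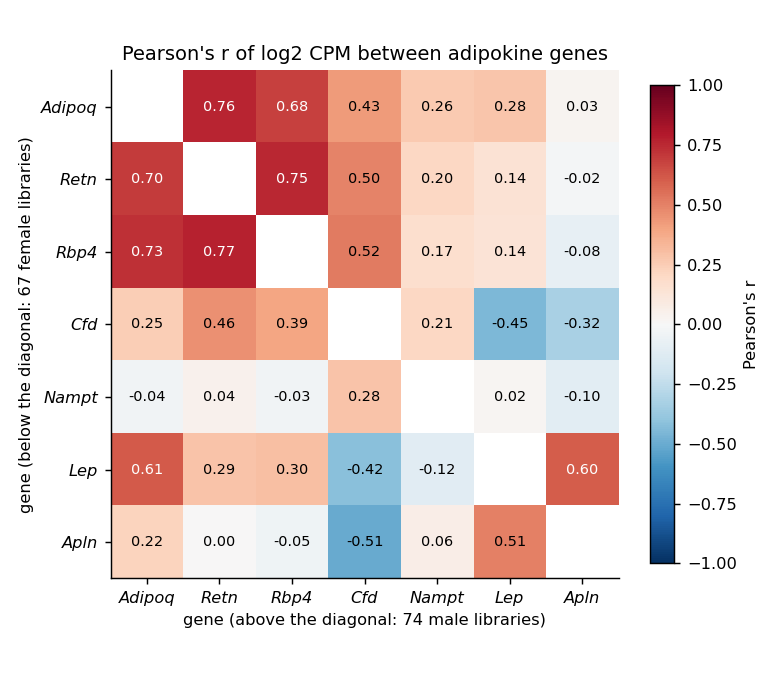
Pearson's r of log2 CPM for each pair of the 7 adipokine genes, with 67 female libraries below the diagonal and 74 male libraries above it, on a colour scale from -1 to 1. *Adipoq*, *Retn* and *Rbp4* form a block of r from 0.68 to 0.77, and *Cfd* is negative with *Lep* and *Apln* in both sexes.

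Set beside the cell type scores, the members differed in what they followed. *Adipoq* tracked the adipocyte score most closely, with r = 0.89 in females and 0.82 in males (rho = 0.81 and 0.81), then *Retn* (r = 0.72 and 0.63, rho = 0.68 and 0.63), *Rbp4* (0.66 and 0.48, rho = 0.59 and 0.53) and *Lep* (0.65 and 0.39, rho = 0.59 and 0.26). The adjusted permutation p for r was at most 0.000198 for the first 3 genes, over 7 members and 8 scores in both sexes. For *Lep* it was 7.00e-05 in females and 0.00336 in males, and for rho in males 0.0574. Without the 2 libraries farthest from the median r was 0.86 and 0.78 for *Adipoq*, 0.66 and 0.59 for *Retn*, 0.59 and 0.47 for *Rbp4*, and 0.58 and 0.24 for *Lep*. In libraries low in lymph node markers *Adipoq* kept r = 0.59 in females and 0.53 in males, while *Lep* had 0.12 and -0.32. *Cfd*, although an adipocyte product, had r = 0.16 and 0.29 with the adipocyte score (adjusted permutation p = 0.315 and 0.0312). *Nampt* had 0.11 and 0.42 (adjusted permutation p = 0.505 and 0.000784), in males above the 0.39 of *Lep*. *Apln* had 0.27 and 0.20 (adjusted permutation p = 0.058 and 0.144).

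*Cfd* ran against the macrophage score, with r = -0.53 in females and -0.58 in males (rho = -0.47 and -0.60, adjusted permutation p for r = 7.00e-05), and at -0.46 and -0.54 without the 2 libraries farthest from the median. The sign was the same in BXD (-0.60 and -0.57) and outside BXD (-0.45 and -0.60). *Retn* also ran against the macrophage score (r = -0.36 and -0.28, adjusted permutation p = 0.00817 and 0.0374). *Lep* rose with it (r = 0.35 and 0.41, adjusted permutation p = 0.0118 and 0.00117), as did *Apln* (r = 0.32 and 0.27, adjusted permutation p = 0.0182 and 0.038). *Adipoq*, *Rbp4* and *Nampt* passed with it in neither sex. *Apln* followed the endothelial score, with r = 0.61 in females and 0.74 in males (rho = 0.61 and 0.69, adjusted permutation p for r = 7.00e-05), at 0.56 and 0.71 without the 2 farthest libraries, and at 0.71 and 0.87 in BXD against 0.41 and 0.64 outside it. *Lep* also followed it, with r = 0.48 and 0.58 (rho = 0.60 and 0.53, adjusted permutation p for r at most 0.000311). So did *Adipoq*, with r = 0.64 in females, above that of *Apln*, and 0.32 in males (adjusted permutation p = 7.00e-05 and 0.015). *Retn* (r = 0.35, adjusted permutation p = 0.0101) and *Rbp4* (r = 0.30, adjusted permutation p = 0.0318) passed in females but not in males. Correlations with the lymph node score over all libraries of a sex entered the adjustment of the p-values. They are not reported, because the libraries fell into separate clusters on that score.

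The genes whose log2 CPM was most like each member's across all libraries, after centring within each sex, were read from 16855 genes as a description. *Lep* was closest to *Npr3*, the natriuretic peptide clearance receptor (r = 0.93), *Lpgat1*, a lysophospholipid acyltransferase (0.93), and *Prelp*, a matrix proteoglycan (0.93). *Adipoq* was closest to *Abcd2*, a peroxisomal fatty acid transporter (0.90), *Fgfrl1* (0.88) and *Gnai1*, an inhibitory G protein subunit (0.87). *Apln* was closest to *Prnd*, which encodes doppel (0.90), *Nes*, or nestin (0.81), and *Bcl6b* (0.80). *Retn* and *Rbp4* shared their nearest gene, *Orm1*, an acute-phase plasma protein (0.82 and 0.76), and were next closest to *Cdo1*, or cysteine dioxygenase (0.81), and *Fxyd1* (0.80), and to *Pfkfb1* (0.69) and *Ivd* (0.69). *Cfd* was closest to *Slc43a1*, an amino acid transporter (0.80), *Cntnap1* (0.73) and *Sfxn1*, a mitochondrial serine carrier (0.72). *Nampt* had no near neighbour, with *Vdac2* (0.54), *Selenot* (0.53) and *Gpat4* (0.53) at the top.

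The receptors and binding partners of the adipokines differed between the sexes in both directions. Of 10 tested, 2 were higher and 5 lower in females (edgeR's quasi-likelihood test), where 58.1% of all genes were called and 29.8% were called lower. The leptin receptor *Lepr* was higher by 0.56 ± 0.14 on the log2 scale, opposite in sign to *Lep*, with median TPM of 4.20 in females and 2.51 in males of the matched strains (adjusted p = 0.000374). The retinol binding protein receptor *Stra6* was higher by 2.18 ± 0.30 at a low level, 0.50 against 0.125 TPM. The adiponectin receptors *Adipor1* (-0.10 ± 0.04) and *Adipor2* (-0.35 ± 0.08) and the adiponectin-binding T-cadherin *Cdh13* (-0.37 ± 0.09) were lower, as *Adipoq* was. The apelin receptor *Aplnr* (-0.37 ± 0.11) was lower, as *Apln* was, and so was *Tlr4* (-0.27 ± 0.05), proposed to bind resistin. *Stra6l* (-0.20 ± 0.15), *Ttr*, the plasma partner of retinol binding protein (0.07 ± 0.58), and *Cap1*, a proposed resistin receptor (-0.07 ± 0.04), did not pass. The endothelial and adipocyte markers were lower in females as well, at medians of -0.35 and -0.60. The part of these cells in the receptors' differences was not tested.

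Genes around each member were counted from fixed lists, where the median log2 fold change over all genes tested was 0.01 and 58.1% of them were called. The calls in the complement (4 of 9), NAD (6 of 12) and other secreted factor (11 of 19) lists were at or below that share. Over all genes tested, 4759 of 16765 were called higher in females. In leptin signalling 4 of 6 were higher in females and none lower, so the number called was near the share of 58.1%. They were *Socs3*, the feedback inhibitor of the receptor (0.62 ± 0.12), *Ptpn1*, a phosphatase of the receptor's kinase (0.21 ± 0.06), *Stat3*, its transcription factor (0.20 ± 0.03), and *Sh2b1*, an adaptor (0.14 ± 0.04), and the list's median was 0.18. Of 6 endoplasmic reticulum genes of adiponectin assembly 5 were lower and none higher, among them *Gstk1*, which promotes multimer assembly (-0.39 ± 0.09), the chaperone *Hspa5* (-0.30 ± 0.04), *P4hb* (-0.14 ± 0.05) and the oxidase *Ero1l* (-0.11 ± 0.03), at a median of -0.12. In the alternative complement pathway 3 of 9 were lower, the receptors *C3ar1* (-0.92 ± 0.15) and *C5ar1* (-0.66 ± 0.12) and factor B, *Cfb* (-0.85 ± 0.09), which is the substrate of adipsin, while *C3* was higher (0.25 ± 0.10) and the median was -0.08.

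In retinoid handling 4 of 9 were higher and 3 lower in females, at a median of -0.18. The retinoic acid carrier *Crabp2* (4.59 ± 0.26) and the retinol esterifying enzyme *Lrat* (1.12 ± 0.17) were higher, and *Rarres2*, a retinoic acid responsive gene that encodes chemerin, was lower (-0.87 ± 0.11). In NAD metabolism 3 of 12 were higher and 3 lower, at a median of -0.02, with *Nnmt*, which consumes nicotinamide (-0.82 ± 0.14), *Nmnat2* (-0.25 ± 0.08) and NAD kinase *Nadk* (-0.24 ± 0.04) lower and *Qprt*, of the synthesis from tryptophan, higher (0.61 ± 0.19). Of 19 other secreted adipose factors 2 were higher, lipocalin 2, *Lcn2* (3.86 ± 0.29), and *C1qtnf3*, a paralog of adiponectin (1.0 ± 0.19), and 9 were lower, including the chemokine *Ccl2* (-1.0 ± 0.14), at a median of -0.11. Of 10 transcription factors known to act on adipokine promoters 8 were lower and 1 higher, at a median of -0.30. Among the lower were *Cebpa* (-0.43 ± 0.09), *Pparg* (-0.38 ± 0.09), *Srebf1* (-0.34 ± 0.08) and *Epas1* (-0.33 ± 0.07). The part of these factors in the members' levels was not tested. The mammary epithelial markers rose in the same libraries, and their part in genes such as *Lcn2*, *Crabp2* and *Stra6* was not tested.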

How the data were processed

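Total RNA from subcutaneous adipose tissue was made into KAPA mRNA HyperPrep libraries. The authors quantified transcripts with kallisto 0.46.1 (build mm10 per the labels, Ensembl release 97 per the methods) and took gene sums through tximport. Estimated counts were deposited unnormalized, 30.3% of them more than 1e-06 from a whole number, and the deposited TPM values were scaled by the authors for length and add up to 1000000 per library. Every column was matched to a sample by its title. Symbols and coordinates came from GENCODE M21, which named 35935 of 36558 genes, and promoter windows from RefSeq on GRCm38.p6.

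Estimated counts were rounded, filtered with filterByExpr and scaled by TMM, and tested with edgeR 4.0.16 in R 4.3.3 (quasi-likelihood, Benjamini-Hochberg over all genes tested, threshold 0.05). The sex difference was fitted as ~ Strain + Sex, where the pairing is by strain, since both sexes of an inbred strain share a genotype. The study's methods used limma, which was an alternative here (limma 3.58.1, also on log2(TPM + 1)), as was DESeq2 1.42.0. Families were fitted within a sex. SE was derived from the fold change and its F statistic. Log2 CPM took a prior count of 2. Correlations used Python 3.11.15, numpy 2.4.6 and scipy 1.17.1 with two-sided permutation tests of 100000 resamples. The scripts were tested on simulated data. A count of 3, taken as the floor, equals 0.0992 CPM at the median depth and 0.479 CPM in the shallowest library, and floors cover counting error only. No member was at 0 in any library.

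The members and gene lists were chosen with earlier results of these data known. Named were the 7 members, every tested gene of the receptor list, in each other list up to 4 genes with the largest absolute log2 fold change among those called, the 3 genes most like each member, the lowest and highest strains, and strains whose Y-linked genes went against the label. Other genes and libraries named in the text as markers or as neighbours of an extreme were added after their values were seen. Alternatives were other scalings, filters, tools and covariates, no strain term, and leaving out libraries, of which the splits by lymph node markers and the omission of AXB12/PgnJ, of CXB and BXH, and of single CXB and BXH libraries were chosen after seeing the data. For the marker scores the split into BXD and outside BXD was not planned either. The omission of libraries against the Y-linked check was not planned for the marker scores and the pairs of members. Values of 2 genes that the naming rule takes from the gene lists are not reported here.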

Additional observations from a re-analysis of the deposited data

Results flagged for a closer look

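The library labelled AXB12/PgnJ female stood apart from the other 8 AXB/BXA females for 4 members, by Dixon's test of the gap to the nearest library over the range of the group. Its *Adipoq* was the lowest at 8.21 log2 CPM, where the others lay between 9.91 and 11.23. Its *Retn* was the lowest at 6.52, below 8.49 to 9.73 in the others. Its *Rbp4* was the lowest at 5.12, below 6.75 to 8.36, and its *Nampt* was the highest at 7.89, above 6.33 to 6.93. The group was the only one of a size that the test covers, so 7 groups of values were tested, and chance marks about 1 in 20 of such groups. The 4 marks come from 1 library and are not separate events. Without this strain the log2 fold changes between the sexes were -0.29 for *Adipoq*, -0.07 for *Retn*, 0.15 for *Rbp4* and -0.33 for *Nampt*, and no call changed.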

How the results depend on the processing

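The pairing comes from the strain names. Without it, as no replicate block, *Lep* was at -0.77, and no call of a member changed. Of the alternative values of the members' sex differences, 15 for each member, 98 stayed on their side of the threshold and kept their direction, except that 2 values past no threshold changed sign: *Rbp4* was at -0.0330 in all libraries with no replicate block, and *Retn* at 0.0353 in strains low in lymph node markers. With the adipocyte score as covariate *Adipoq* turned to 0.39 and *Retn* to 0.55, and *Cfd* was at 0.61 and *Rbp4* at 0.79, all past the threshold, while *Lep*, at -0.35, missed it (adjusted p = 0.288, edgeR's quasi-likelihood test). In the 19 strains with both libraries low in lymph node markers *Adipoq* was at -0.0583, which missed the threshold, *Rbp4* at 0.46, which passed it, and 6259 genes were called instead of 9747.

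Over families, libraries low in lymph node markers gave 151 calls in females instead of 1770 and 701 in males instead of 2521. limma-voom gave 480 and 1389, log2(TPM + 1) gave 315 in females, and leaving out CXB and BXH gave 1247 in males. Without each CXB and BXH library in turn the calls numbered 1652 to 2055 in females and 1941 to 2867 in males. Without AXB19a/PgnJ and AXB19b/PgnJ they numbered 1540 in females and 3040 in males. The adjusted p of *Rbp4* in males was 0.111 in libraries low in lymph node markers, 0.0792 under library totals, 0.122 by limma-voom and 0.138 on log2(TPM + 1), while *Retn* stayed under 0.05 in these.

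Of 42 correlations between members 23 were called, against 15 outside BXD and 15 in libraries high in lymph node markers. *Adipoq* with *Nampt* turned to 0.29 in females on log2(TPM + 1) and to -0.0627 in males under library totals. In libraries low in lymph node markers *Lep* turned with *Adipoq* (-0.0253 in females, -0.45 in males) and, in females, with *Retn* (-0.25) and *Rbp4* (-0.19), and *Adipoq* with *Apln* in males (-0.51). Of 42 correlations with the adipocyte, macrophage and endothelial scores 26 were called, against 15 in BXD, 16 in libraries low and 16 in libraries high in lymph node markers. In the low libraries the endothelial score turned with *Retn* (-0.0581) and *Rbp4* (-0.12) in females and *Adipoq* in males (-0.39), and the adipocyte score with *Lep* in males (-0.32). Subsets hold fewer libraries, and other causes were not tested. The share called over all pairs of genes, or over all genes with a score, was not computed. These counts are therefore not a result about the members. At the median library total a floor of 3 counts is 0.0992 CPM. *Apln*, whose median CPM of 9.67 in females was the lowest of the 7 members, lies nearest to it.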
